A study of Mus musculus with 12 samples.

Results

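The genes described here encode the NF-kB transcription factors and the proteins that restrain them. There are 10 of them: the subunits *Rela*, *Rel*, *Relb*, *Nfkb1* and *Nfkb2*, and the inhibitors *Nfkbia*, *Nfkbie*, *Nfkbid*, *Nfkbiz* and *Tnfaip3*. Every row of the 2 deposited ChIP-seq tables that carries 1 of these gene names was taken, whatever its values. This gave 39 of 26706 Rpb2 peaks, which carry all 10 names, and 58 of 55862 H3K27ac peaks, which carry 9 of them. *Nfkbid* has no H3K27ac row of its own. A peak carries the name of the gene with the nearest transcription start site (TSS), so a distal peak need not belong to the gene it is named for. All 39 and all 58 peaks passed the filter of a mean of at least 4 reads in 1 genotype.

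Microglia, the resident macrophages of the brain, were sorted as CD11b+CD45lo cells from *Cx3cr1*-WT mice and from KO mice in which eGFP replaces both copies of *Cx3cr1*, the fractalkine receptor. All animals were 2-mo-old littermates on the C57BL/6J strain, and the loss of the receptor is not limited to microglia. Each library is a pool of 3 mice of the same sex, and each genotype has a pool labelled female and a pool labelled male, which makes every comparison 2 pools against 2. Chromatin was recovered with antibodies to Rpb2, a subunit of RNA polymerase II, and to H3K27ac, an acetylated histone found at active promoters and enhancers.

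NF-kB proteins bind DNA as pairs of subunits that share a Rel homology domain. RelA, c-Rel and RelB, made from *Rela*, *Rel* and *Relb*, carry an activation domain, while *Nfkb1* and *Nfkb2* encode precursors that are cut to p50 and p52. In resting cells the IkB proteins encoded by *Nfkbia* and *Nfkbie* hold the dimers in the cytoplasm until the IKK kinases mark them for destruction. *Nfkbid* and *Nfkbiz* encode nuclear IkB proteins that act on subsets of target genes, and *Tnfaip3* encodes A20, a ubiquitin-editing enzyme that ends the signal. Several of these genes are themselves NF-kB targets, and in microglia the pathway is known for its part in the response to bacterial products and cytokines.

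The libraries held between 10395804 and 44332626 reads, the deepest being the KO female Rpb2 pool. Peaks took 11.2% to 15.1% of Rpb2 reads and 61.1% to 65.3% of H3K27ac reads in 3 pools, but 15.9% in the H3K27ac pool labelled WT female. The Rpb2 library labelled WT female held 136 reads at Y-linked genes, against 214 and 266 in the males and 0 in the KO female, so it goes against its sex label. Peaks with 0 reads outnumber those with 1 read in every library, by 951 to 315 in that Rpb2 library and by 18121 to 499 in the WT male H3K27ac library. This excess was not explained by the sources used here, so a value of 0 is given below as listed at 0 and no fold is drawn from it. Of 10 microglial marker genes, 10 carried peaks of each mark. In H3K27ac, *Tmem119* was low at 0.665 to 8.58 CPM, and *C1qa* had 6.48 in the pool labelled WT female and 0 elsewhere. The remaining microglial markers had 128 to 2397 CPM in that mark. Markers of neutrophils, of monocytes and border macrophages, of lymphocytes, of oligodendrocytes and of neurons had 0 Rpb2 rows, while 1 of 4 astrocyte markers (*Slc1a3*, 165 to 210 CPM) and 2 of 3 endothelial markers had some. The summed Rpb2 level of those endothelial markers, *Pecam1* and *Flt1*, was 86.2 and 69.5 CPM in WT and 50.9 and 62.1 in KO, and its part in the results was not tested. Every one of these other cell types had H3K27ac rows, for 2 of 4 to 3 of 3 of its markers.

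Sequences before the RefSeq start sites (GRCm38.p6) were read for the 7 members that the promoter table holds, *Rela*, *Rel*, *Nfkb2*, *Nfkbia*, *Nfkbie*, *Nfkbid* and *Tnfaip3*, in 12 windows of 250 bases before to 50 after a start. *Relb*, *Nfkb1* and *Nfkbiz* were not matched. The kB consensus, the decamer that NF-kB dimers bind, was searched on both strands. It was found in 8 of the 12 windows, covering 6 of the 7 genes, and in 4.51% of all 32851 windows. The gene without a match was *Rela*. A pair of *Nfkb2* windows (chr19:46305445-46305744 and chr19:46305680-46305979) overlap and share a match, so the windows are not independent. The bases before the start are shown for 3 genes, 5′ to 3′ on the strand of the gene, with the kB match in capitals, because they hold a kB match and, apart from 1 base in *Rel*, no annotated exon of a protein-coding gene.
Rel (chr11:23770970-23771219, minus strand): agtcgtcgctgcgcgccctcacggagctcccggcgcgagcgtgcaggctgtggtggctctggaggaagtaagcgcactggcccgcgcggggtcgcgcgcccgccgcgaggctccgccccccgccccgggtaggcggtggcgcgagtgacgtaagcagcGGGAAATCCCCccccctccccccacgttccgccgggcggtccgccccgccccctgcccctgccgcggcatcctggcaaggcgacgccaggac
Nfkbia (chr12:55492648-55492897, minus strand): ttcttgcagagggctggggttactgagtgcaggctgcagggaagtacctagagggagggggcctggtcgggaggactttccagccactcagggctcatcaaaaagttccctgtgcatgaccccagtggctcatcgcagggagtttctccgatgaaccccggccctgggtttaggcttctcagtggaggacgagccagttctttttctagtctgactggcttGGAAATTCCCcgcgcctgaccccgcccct
Nfkbie (chr17:45555450-45555699, plus strand): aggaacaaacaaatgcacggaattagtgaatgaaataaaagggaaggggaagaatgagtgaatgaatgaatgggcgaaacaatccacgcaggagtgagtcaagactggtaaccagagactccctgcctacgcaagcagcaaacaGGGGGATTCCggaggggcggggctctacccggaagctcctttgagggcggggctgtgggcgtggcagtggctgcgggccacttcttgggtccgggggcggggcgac

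In *Rel* the capitals cover a pair of overlapping matches that differ by 1 base. For *Nfkb2* (its first RefSeq start), *Nfkbid* and *Tnfaip3*, whose windows hold several matches, each match is shown with 10 bases on each side, and a match that overlaps the one at -39 in *Nfkb2* is left out. The number after the gene is the distance of the first base of the match from the RefSeq start.
Nfkb2 -39 (chr19:46304688-46304717, plus strand): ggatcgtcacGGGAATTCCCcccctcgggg
Nfkb2 -11 (chr19:46304716-46304745, plus strand): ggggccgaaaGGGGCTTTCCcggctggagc
Nfkbid -226 (chr7:30422170-30422199, plus strand): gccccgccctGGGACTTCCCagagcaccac
Nfkbid -181 (chr7:30422215-30422244, plus strand): gggccgaacaGGAATTCCCCgtgcgcgggg
Tnfaip3 -125 (chr10:19015516-19015545, minus strand): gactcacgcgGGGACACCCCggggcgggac
Tnfaip3 -12 (chr10:19015403-19015432, minus strand): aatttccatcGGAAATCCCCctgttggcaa

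A match is a description of the letters and not a measured binding site. The other motifs were the AP-1 site TGANTCA in 3 of the 12 windows (7.81% of all windows), the ETS core GGAAGT in 5 (23.8%), the CRE TGACGTCA in 1 (1.79%), and TATAAA in 2 (13.6%). The ETS and kB matches overlap in 1 *Nfkbid* window. Among the 24 member Rpb2 peaks over 1000 bp from a start, the 200 bases around the centre held a kB match in 2 (8.33%), against 2.58% of 16578 such peaks, and an ETS core in 9 (37.5%), against 21.9%. The sequences of 5 of these peaks are shown as the plus strand of mm10, with any match to these motifs in capitals. They are the pair with a kB match, the distal *Nfkbia* peak with the lowest p, and the pair of upstream *Tnfaip3* peaks with the highest Rpb2 level per kb.
Rela 11479 (chr19:5648870-5649069, plus strand): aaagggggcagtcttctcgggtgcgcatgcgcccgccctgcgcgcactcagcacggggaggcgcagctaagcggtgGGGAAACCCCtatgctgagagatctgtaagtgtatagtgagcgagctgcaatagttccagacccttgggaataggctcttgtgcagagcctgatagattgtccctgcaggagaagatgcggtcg
Nfkbia 3867 (chr12:55488681-55488880, plus strand): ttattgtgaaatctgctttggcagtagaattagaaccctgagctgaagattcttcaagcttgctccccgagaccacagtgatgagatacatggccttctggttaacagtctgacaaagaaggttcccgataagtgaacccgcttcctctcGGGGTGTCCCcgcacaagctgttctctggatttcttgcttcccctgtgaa
Nfkbia 4396 (chr12:55488152-55488351, plus strand): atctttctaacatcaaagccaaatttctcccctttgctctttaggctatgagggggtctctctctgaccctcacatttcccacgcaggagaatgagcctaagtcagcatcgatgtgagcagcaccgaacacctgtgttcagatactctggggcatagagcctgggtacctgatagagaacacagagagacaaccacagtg
Tnfaip3 -46766 (chr10:19062077-19062276, plus strand): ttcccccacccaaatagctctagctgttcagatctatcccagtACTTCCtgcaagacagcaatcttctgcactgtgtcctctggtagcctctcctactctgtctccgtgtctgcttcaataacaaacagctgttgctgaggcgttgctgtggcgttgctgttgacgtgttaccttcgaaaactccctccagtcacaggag
Tnfaip3 -47332 (chr10:19062643-19062842, plus strand): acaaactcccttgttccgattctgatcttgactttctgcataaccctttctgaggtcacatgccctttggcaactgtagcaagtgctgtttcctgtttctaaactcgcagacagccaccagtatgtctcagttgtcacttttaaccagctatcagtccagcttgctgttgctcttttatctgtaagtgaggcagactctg

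Rpb2 peaks were listed at the promoters of all 10 genes, at levels that spanned a wide range (plot of promoter levels by pool). Those of *Relb* came from the KO list only. Levels are given as CPM per kb, the reads of a peak scaled by the TMM-adjusted reads in all tested peaks of the library and divided by peak length, and a gene was represented by its peak with the most reads within 1000 bp of a TSS. *Nfkbia* stood first in 4 of 4 pools, with levels per kb of 1366 and 1572 in WT and of 949 and 1112 in KO. *Nfkbiz*, *Rela*, *Nfkb2* and *Tnfaip3* followed with means over 4 pools of 691, 665, 578 and 523 per kb, and neighbours among these 4 overlapped in their ranges of pools. *Nfkbie* and *Rel* came next at 437 and 422 and did not differ beyond their spread, but *Tnfaip3* lay above *Nfkbie* in every pool. *Nfkbid* and *Nfkb1*, at 203 and 190, also overlapped. The *Nfkbid* peak used is from the KO list only and had the most reads through the KO pools. The other *Nfkbid* promoter peak, listed in both genotypes, had 236 ± 69.7 per kb in WT and 161 ± 53.4 in KO. *Relb* was last in 4 of 4 pools, with 8.06 to 85.4, at a KO-listed peak that had the most reads through the KO pools. Its other peak was higher in WT, at 101 ± 64.9 per kb. Among 8350 promoter peaks, 1 per gene, *Nfkbia* in WT stood at the 99.3 percentile.

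**Figure D1:**
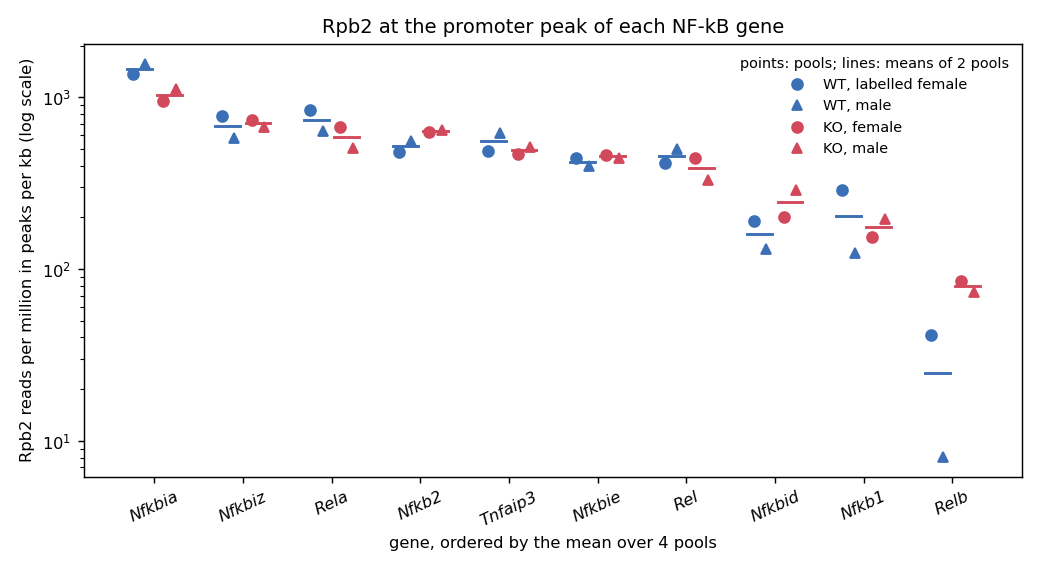
Rpb2 level at the promoter peak of each gene, as CPM per kb on a log axis, with 1 point per pool and a line at the mean of the 2 pools of a genotype. *Nfkbia* lies above all others in each pool, and *Relb* lies lowest with the WT pools at 41.3 and 8.06. The *Nfkbid* and *Relb* peaks shown are from the KO list only.

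Between genotypes, 0 of 39 member peaks passed an adjusted p of 0.05 in edgeR's quasi-likelihood test across all peaks, with a lowest adjusted p of 0.198. Among all peaks, 2 of 26706 passed (0.00749%). At an unadjusted p under 0.05, 1 member peak was higher in KO and 2 were lower, against backgrounds of 6.12% and 6.06%. With DESeq2, 1 of 39 member peaks passed, against 3.83% of all peaks. Pools did not overlap in 9 peaks that were higher and 9 that were lower in KO of the 39, against 25.7% and 21.7% of all peaks. The median log2 fold change (KO over WT) of the members was -0.04, and of all peaks 0.04. Summed over the peaks of a gene, 0 of 10 genes passed, against 0% of 10206 genes, with 0 at an unadjusted p under 0.05 (lowest p 0.054) and 0 that passed with DESeq2 (0.274% of genes). Pools lay apart in 1 gene that was higher and 3 that were lower, against 22.4% and 19.7% of genes. Among the 95% intervals of the 10 gene sums, that of *Relb* was the widest, from -0.86 to 1.36. That of *Nfkbia* was the narrowest, from -0.55 to 0.02. With 2 pools per genotype, differences within the interval of a gene remain possible for that gene.

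**Figure D2:**
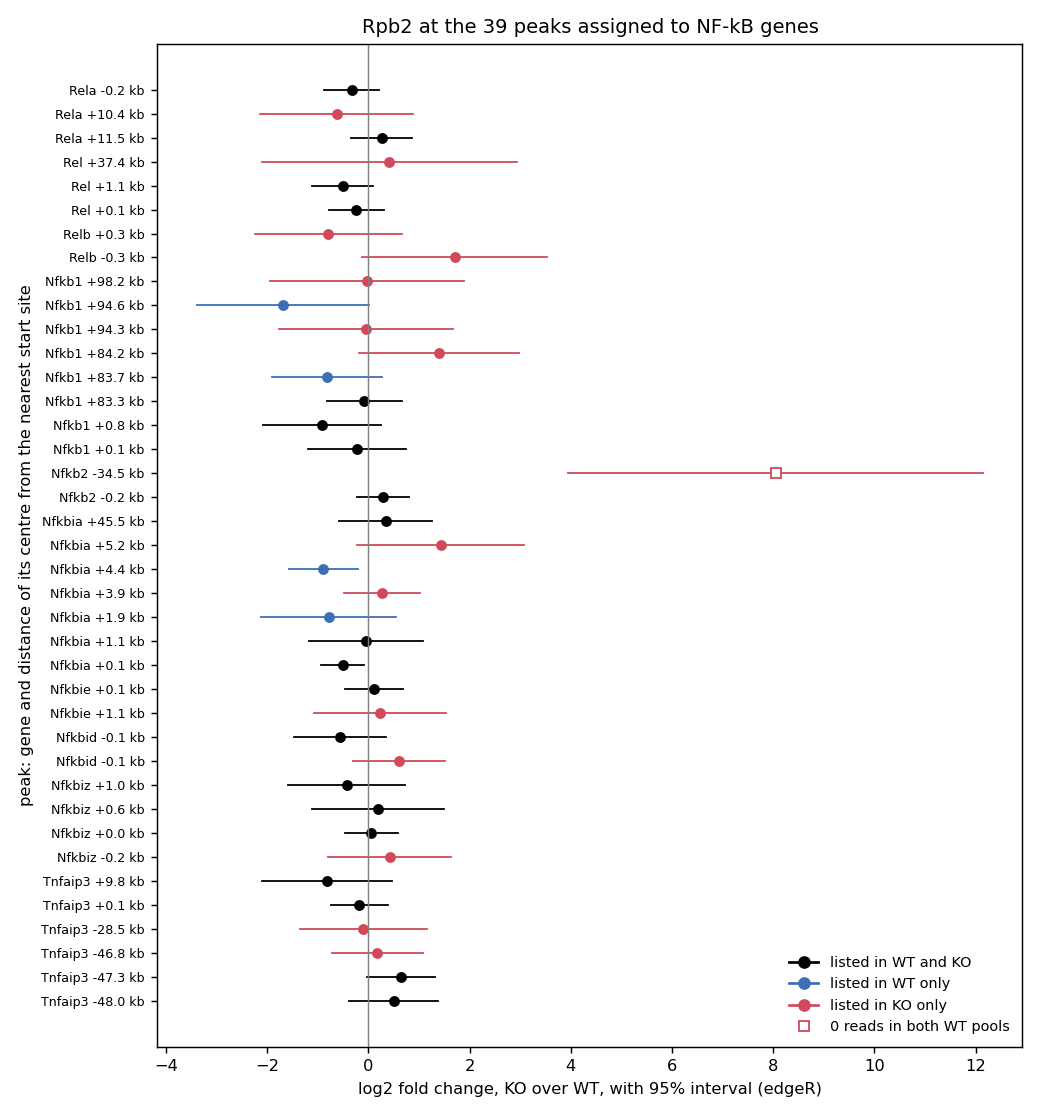
Log2 fold change of Rpb2 in KO over WT with its 95% interval from edgeR, for each of the 39 member peaks, labelled by the distance of the peak centre from the nearest TSS and coloured by the genotype list the peak came from. The interval spans 0 for 36 peaks, and the open square marks the *Nfkb2* peak with 0 reads in both WT pools, whose fitted value depends on the prior count.

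The authors called peaks in each genotype and merged the lists, so a peak found in the KO list only tends to be higher in KO by its selection. Of the 39 Rpb2 peaks, 20 came from both lists, 4 from WT only and 15 from KO only. The median log2 fold change was -0.13 for the members in both lists (all such peaks -0.17), -0.85 for those in WT only (all -0.89) and 0.27 for those in KO only (all 0.51). Peaks in both lists were 51.3% of the members and 33.3% of all peaks.

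Among the subunits, *Rela* encodes the main transactivating partner of p50. Its promoter peak (chr19:5637207-5637437) held 250 and 223 reads in the female-labelled and male WT pools and 845 and 301 in the KO pools. That is a level of 742 ± 146 per kb in WT and 589 ± 111 in KO (SD, n = 2), with a log2 fold change of -0.33 ± 0.25 (SE) and an adjusted p of 0.622, and the pools overlapped. A further Rpb2 peak from both lists lay past the 3′ end of *Rela* (chr19:5648836-5649102), in the 3055 bp between *Rela* and *Sipa1*, which run toward each other. Its level was 337 ± 38.2 per kb in WT and 402 ± 85.6 in KO, the 92.6 percentile of all Rpb2 peaks, and the pools overlapped (0.26 ± 0.28, adjusted p = 0.738). This peak holds the kB match shown above.

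*Rel* encodes c-Rel. Its promoter peak (chr11:23770642-23770998) held 190 and 271 reads in the WT pools, against 870 and 300 in the KO pools, with a log2 fold change of -0.24 ± 0.25 (adjusted p = 0.717), and the pools overlapped. In an intron of *Rel*, at 1089 bp, the level was 349 ± 13.2 per kb in WT and 245 ± 29.8 in KO, and each KO pool was below each WT pool, but the adjusted p was 0.483. A KO-listed peak that HOMER named for *Rel* at 37433 bp lies just past the end of *Pus10* and held 26, 0, 77 and 32 reads in the WT female-labelled, WT male, KO female and KO male pools.

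*Relb* encodes the partner of p52. It had 2 Rpb2 peaks, and neither was in the WT list. The peak at -302 bp (chr7:19629618-19629863) held 13 and 3 reads in the WT pools, against 115 and 46 in the KO pools, which is a level of 24.7 ± 23.5 per kb against 79.3 ± 8.57. Both KO pools were higher than both WT pools, with a log2 fold change of 1.71 ± 0.84 and an adjusted p of 0.44. The value turned on the WT pools: without the one labelled female it was 3.26 with an adjusted p of 0.0192 in edgeR, in a fit that called 8.28% of all peaks, and without the male it was 0.95. The other peak, at 333 bp, went the other way at -0.79 ± 0.67, with overlapping pools. Their sum gave 0.25 ± 0.53 with an adjusted p of 0.911.

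*Nfkb1*, the p105/p50 gene, had 8 Rpb2 peaks, and 94.3% of genes have fewer. At the promoter (chr3:135691363-135691618) the WT pools held 94 and 48 reads and the KO pools 214 and 129, with a log2 fold change of -0.23 ± 0.45. The WT pools, at 287 and 124 per kb, lay on either side of the KO pools at 153 and 197. The highest of its distal peaks, at 83335 bp inside the gene, had a level of 281 ± 63.6 per kb in WT and 267 ± 56.5 in KO. The promoter had 205 ± 115 and 175 ± 31.6, and the levels of these 2 peaks overlapped in WT. The distal peak overlaps an exon, and its log2 fold change was -0.08 ± 0.34. Intronic peaks differed in direction, from -1.68 ± 0.78 at 94636 bp in the WT list to 1.40 ± 0.72 at 84154 bp in the KO list, and neither passed (adjusted p = 0.415 and 0.461).

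*Nfkb2*, the p100/p52 gene, had a promoter peak (chr19:46304400-46304632) with 144 and 196 reads in the WT pools, against 800 and 384 in the KO pools. Its level was 519 ± 52 per kb in WT and 636 ± 13.2 in KO, and each KO pool was above each WT pool, with a log2 fold change of 0.29 ± 0.24 and an adjusted p of 0.647. A second peak named for *Nfkb2* lies at -34475 bp (chr19:46270143-46270382) in an exon of *Gbf1* and came from the KO list only. It was listed at 0 in both WT pools and held 61 and 34 reads in KO, and no fold is given because of the excess of zeros described above. Its adjusted p was 0.198 in edgeR and 0.0143 in DESeq2. It has the lowest p of the 39, and it lies in another gene.

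Among the inhibitors, *Nfkbia* encodes IkBa, the first inhibitor to be made again after NF-kB has been activated. Its promoter peak (chr12:55492446-55492668) held 390 and 530 reads in the WT pools, against 1158 and 633 in the KO pools. This is a level of 1469 ± 145 per kb in WT and 1030 ± 116 in KO, and both KO pools were below both WT pools. The log2 fold change was -0.51 ± 0.19, with an unadjusted p of 0.0213 and an adjusted p of 0.325 in edgeR. The log2 ratio was -0.52 between the female-labelled pools and -0.50 between the males. An unadjusted p under 0.05 in this direction was reached by 6.06% of all peaks.

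A cluster of *Nfkbia* peaks follows the end of the gene, and these differ among themselves. The peak at 4396 bp (chr12:55488100-55488402), from the WT list only, held 125 and 138 reads in the WT pools, against 242 and 149 in the KO pools, for a level of 311 ± 14.9 per kb against 169 ± 33.1. Its log2 fold change was -0.89 ± 0.32, with an unadjusted p of 0.0156 and an adjusted p of 0.293 in edgeR. A peak from the WT list only tends to be lower in KO by its selection. Of 3665 such Rpb2 peaks, 867 were lower at an unadjusted p under 0.05. The KO-listed *Nfkbia* peaks beside the one at 4396 bp were higher in KO at 5225 bp (1.43 ± 0.76, adjusted p = 0.469) and overlapped at 3867 bp (0.27 ± 0.35). The kB match above is found in the peak at 3867 bp. The sum over 7 peaks was 554 ± 9.7 CPM in WT and 461 ± 51.1 in KO (log2 fold change -0.27 ± 0.14), with an adjusted p of 0.489, and the pools did not overlap.

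*Nfkbie* encodes IkBe. Its promoter peak (chr17:45555643-45555870) held 130 and 137 reads in the WT pools, against 577 and 259 in the KO pools, at 421 ± 33.9 per kb in WT and 454 ± 12.1 in KO. The log2 fold change of 0.11 ± 0.26 had an interval from -0.47 to 0.68, and the pools overlapped.

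*Nfkbid* and *Nfkbiz*, the nuclear IkB genes, each had Rpb2 at 2 start sites. For *Nfkbid* the upstream of these peaks (chr7:30422160-30422400) was listed in both genotypes and held 88, 68, 162 and 122 reads, at 236 ± 69.7 per kb in WT and 161 ± 53.4 in KO. The next (chr7:30423047-30423263), from the KO list only, held 53, 43, 240 and 160 reads in the same order, at 161 ± 42.2 against 245 ± 61.4. Their log2 fold changes were -0.56 ± 0.42 and 0.61 ± 0.42, opposite in sign and neither past the threshold (adjusted p = 0.611 and 0.583). The sum of both was 0.07 ± 0.32. The 2 kB matches of *Nfkbid* fall in the upstream peak.

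For *Nfkbiz* the downstream start (chr16:55821998-55822228) carried most of the polymerase. It held 229 and 203 reads in the WT pools, against 937 and 394 in the KO pools, at 678 ± 137 per kb and 705 ± 51.3, with a log2 fold change of 0.06 ± 0.24. The upstream start (chr16:55838760-55838989), the 5′ end of the annotated gene, had 79.6 ± 2.74 per kb in WT and 107 ± 17.5 in KO. Both KO pools were above both WT pools there, with 0.42 ± 0.56 and an adjusted p of 0.791.

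*Tnfaip3*, which encodes A20, combined a promoter peak with a distal upstream cluster. At the promoter (chr10:19015229-19015458) the WT pools held 143 and 217 reads and the KO pools 587 and 303, at 555 ± 97.8 and 491 ± 35.4 per kb, and the pools overlapped (-0.18 ± 0.26, adjusted p = 0.809). Upstream lay 4 intergenic Rpb2 peaks, 3 of them between -46766 and -47996 bp. The strongest of these, at -47332 bp (chr10:19062568-19062917), held 77 and 145 reads in the WT pools, against 779 and 262 in the KO pools. Its level was 223 ± 72.1 per kb in WT and 349 ± 79.9 in KO, the 88.2 percentile of all Rpb2 peaks, and its log2 fold change was 0.65 ± 0.31 with an adjusted p of 0.424. Each KO pool was above each WT pool, but the log2 ratio was 1.23 between the female-labelled pools and 0.10 between the males. The peak at -28543 bp held 30 and 99 reads in the WT pools, against 339 and 52 in the KO pools, with log2 ratios of 1.37 between the female-labelled pools and -1.65 between the males, and the pools overlapped.

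**Figure D3:**
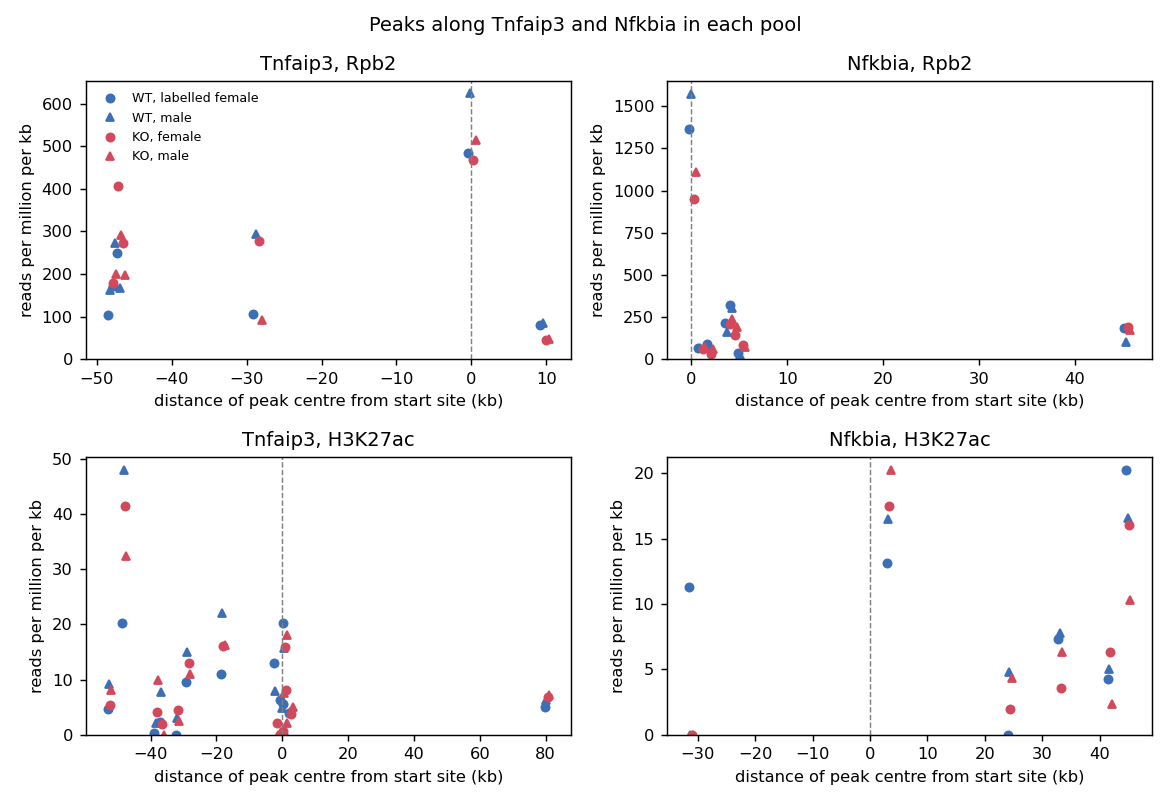
Level of Rpb2 (top) and H3K27ac (bottom) in each pool, as CPM per kb, at every peak named for *Tnfaip3* (left) and *Nfkbia* (right), against the distance of the peak centre from the TSS in kb, with points of a peak shifted sideways to separate the pools. Rpb2 is highest at the start of each gene, while the mean H3K27ac of *Tnfaip3* is highest in the cluster at -47981 bp, where the WT pools spread widely.

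Rpb2 and H3K27ac lay together at these genes. Of the 39 member Rpb2 peaks, 35 (89.7%) overlapped an H3K27ac peak, against 76.6% of all Rpb2 peaks. Over 1000 bp from a TSS this was 20 of 24 (83.3%), against 63.4%. In the other direction 16 of 58 H3K27ac peaks (27.6%) overlapped a Rpb2 peak, against 23.4%. Several of these peaks share a locus, so no test was made.

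H3K27ac covered the annotated start of all 10 genes (plot of H3K27ac by gene). For *Nfkbid* the covering peak (chr7:30410663-30424643) carries the name of its neighbour *Hcst*, and it is 13980 bp long. The level per kb was highest at *Nfkb2*, with a mean over 4 pools of 32.9, then at *Rel* (31.5) and at *Nfkbid* (29.6), and these overlapped in their ranges. *Nfkb1* was lowest in 4 of 4 pools, at 11.6. Per kb the order was not that of Rpb2: *Nfkbia*, first in Rpb2, was eighth of 10 in H3K27ac at 16.8, over a peak of 8059 bp. *Nfkbia*, *Tnfaip3* and *Nfkbiz* (17.4 and 16.6 for the last 2) did not differ beyond their spread. This order depends on the peak lengths. Before division by length, *Nfkbia* had 119 ± 18.9 CPM in WT and 152 ± 15.3 in KO. *Rel* had 115 ± 10.1 and 160 ± 8.41, and *Nfkb2* 121 ± 9.06 and 103 ± 3.2. For *Nfkbiz* the H3K27ac order uses the upstream start and the Rpb2 order the downstream start.

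**Figure D4:**
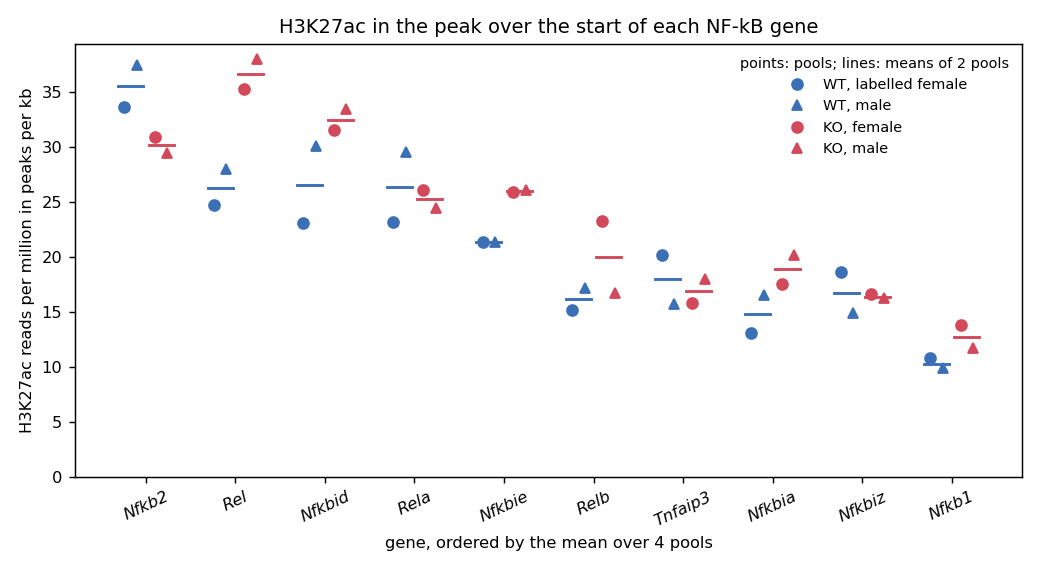
H3K27ac level as CPM per kb in the peak over the annotated start of each gene, with 1 point per pool and a line at the mean of the 2 pools of a genotype; the *Nfkbid* peak is the one named for *Hcst*. Both KO pools are above both WT pools in 5 of 10 genes and below them in 1, and 0 of the 10 passed the adjusted test. Some of these peaks are centred over 1000 bp from a TSS, and no share over all genes was computed for peaks over a start. Of the 9 member H3K27ac peaks within 1000 bp of a TSS, 2 lie higher and 1 lower, against 20.2% and 12% of all such peaks.

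Between genotypes, 0 of 58 member H3K27ac peaks passed (lowest adjusted p 0.811), 0 had an unadjusted p under 0.05 and 0 passed in DESeq2 (0.43% of all peaks). Over the table, 13 of 55798 tested peaks passed (0.0233%), and 1.35% were higher and 3.6% lower in KO at an unadjusted p under 0.05. Pools lay apart in 11 member peaks that were higher and 8 that were lower, against 14.3% and 13% of all peaks. The median log2 fold change was -0.03 for the members and -0.21 for all peaks. Of the 9 gene sums 0 passed (0% of 16938 genes) in edgeR at an unadjusted p of 0.229 and above, and 0 in DESeq2 (1.26% of genes). Pools lay apart in 2 genes that were higher and 1 that was lower, against 13.4% and 14.2%. The intervals of the sums reached from -0.79 to 0.85.

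The H3K27ac calls depended on which WT pool was kept, and the pool labelled WT female is the one whose share of reads in peaks stands apart. Marker genes of several cell types were listed at 0 in the other 3 pools and had reads in that pool, among them neutrophil *S100a9* and *Ly6g* (8.1 and 15.7 CPM), *Olig2* (11.3), neuronal *Rbfox3* (14.6) and microglial *C1qa* (6.48). Other markers were lowest in that pool. They include neutrophil *Elane* (0.81 against 1.5 to 3.19), oligodendrocyte *Mog* (43.7 against 44.3 to 56), monocyte *Ccr2* (30 against 41.8 to 82) and astrocyte *Slc1a3* (334 against 473 to 541). Without that pool, 0 member peaks (1.53% of all peaks) and 2 of 9 gene sums (3.65% of genes) passed, *Rela* at -0.43 and *Tnfaip3* at -0.35. Without the WT male instead, so that the pool labelled WT female alone stood for WT, 8 of 57 member peaks and 3 of 9 gene sums passed, in a fit that called 14.8% of all peaks and 22.5% of genes, and *Tnfaip3* was then at 0.57. A lone pool is assumed in these fits to vary like the KO pools. The part of these library differences in the calls was not tested.

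Of the 58 peaks, 30 came from both lists, 9 from WT only and 19 from KO only. Their median log2 fold changes were -0.03 (all such peaks 0.04), -3.26 (all -6.78) and 0.38 (all 0.52). These classes were 51.7%, 15.5% and 32.8% of the members, against 37.7%, 33.2% and 29.1% of all H3K27ac peaks. *Nfkbiz* had 8 KO-only and 0 WT-only peaks, at 9759 to 160889 bp from its start. This count is not read as a gain, since KO-only peaks tend to be higher in KO by selection. Of the 8, pools overlapped at 18436, 26006, 40758 and 123339 bp. Both KO pools were higher at 9759, 23469, 67869 and 160889 bp, as they were at 4019 of all 16241 KO-only H3K27ac peaks. The WT pools held only 0 to 12 reads at these *Nfkbiz* peaks. Summed H3K27ac of *Nfkbiz* was 143 ± 7.25 CPM for WT against 174 ± 6.53 for KO. That difference is 0.28 ± 0.24 on the log2 scale, with an adjusted p of 0.945 in edgeR.

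Among the subunits, *Rel* had the H3K27ac difference at the start with the lowest unadjusted p, 0.112. The peak (chr11:23768135-23772497) held 381 and 763 reads in the WT pools, against 2027 and 2067 in the KO pools, or 26.3 ± 2.32 per kb against 36.7 ± 1.93. Both KO pools were higher, with a log2 fold change of 0.48 ± 0.30 and an adjusted p of 0.811, at a promoter where the Rpb2 value was -0.24. *Nfkb2* (chr19:46303433-46306830) held 405, 796, 1379 and 1249 reads, at 35.6 ± 2.67 per kb in WT and 30.2 ± 0.943 in KO, with both KO pools lower (-0.24 ± 0.30). *Rela* overlapped at -0.07 ± 0.29 and so did *Relb* at 0.30 ± 0.30. The peak over the *Nfkb1* start was 10.3 ± 0.585 per kb in WT and 12.7 ± 1.49 in KO, with both KO pools higher (0.30 ± 0.29, adjusted p = 0.886).

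Inside *Nfkb1* lay the widest H3K27ac peak of the members, 17092 bp long (chr3:135600823-135617915), wider than 99.7% of all peaks. It held 696 and 1586 reads in the WT pools, against 3034 and 3344 in the KO pools, at 13.2 ± 2.35 and 14.6 ± 1.57 per kb, with a log2 fold change of 0.15 ± 0.32. The 3 Rpb2 peaks between 83335 and 84154 bp lie under it. Both genotype means lay above those at the start of the gene. In KO, with 12.7 ± 1.49 per kb at the start, the levels did not differ beyond their spread.

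Among the inhibitors, the H3K27ac over *Nfkbia* was 14.8 ± 2.34 per kb in WT and 18.9 ± 1.9 in KO. Both KO pools were higher, with 0.35 ± 0.30 and an adjusted p of 0.847, where Rpb2 at the promoter was lower. *Nfkbie* held 300, 530, 1347 and 1287 reads, at 21.4 per kb in both WT pools and 25.9 and 26.1 in KO, with 0.28 ± 0.29 and an adjusted p of 0.907. The peak over *Nfkbid* had 26.6 ± 4.97 per kb in WT and 32.5 ± 1.38 in KO (0.29 ± 0.35). At *Nfkbiz* the downstream start had 15.2 ± 1.72 and 20.1 ± 0.697 per kb (0.40 ± 0.29, adjusted p = 0.811, KO pools higher), and the upstream start 16.7 ± 2.59 and 16.4 ± 0.238 (-0.02 ± 0.32, overlapping).

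At *Tnfaip3* the promoter had 18 ± 3.16 per kb in WT and 16.9 ± 1.55 in KO (-0.08 ± 0.29). The upstream peak at -47981 bp (chr10:19060470-19066312) had higher means, with 34.1 ± 19.6 and 36.9 ± 6.35 per kb, the 99.8 percentile of all H3K27ac peaks. In WT it did not differ from the promoter beyond its spread. It held 418, 1751, 3181 and 2358 reads, and the WT pools spread on either side of the KO pools, with log2 ratios of 1.03 between the female-labelled pools and -0.56 between the males. It spans 3 of the distal Rpb2 peaks of *Tnfaip3*, those between -46766 and -47996 bp.

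Besides the Rpb2 peak in *Gbf1*, 3 member peaks were listed at 0 in both pools of a genotype, all of them H3K27ac peaks of 500 bp from the WT list. The H3K27ac peaks named for *Rel* at -9710 bp, *Nfkb2* at -14993 bp and *Nfkbia* at -31159 bp held 28, 24 and 20 reads in the pool labelled WT female and 0 in the other 3 pools. They rest on that library alone, and their fitted fold changes are not given.

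In the wider pathway, 66 genes were listed, from the IKK complex and adaptors to ubiquitin enzymes and common NF-kB targets. Of the 56 with a Rpb2 row, 0 gene sums passed in either direction, and of the 62 with an H3K27ac row also 0. Their median log2 fold changes were 0.13 (all genes 0.02) and 0.11 (all genes -0.11). At an unadjusted p under 0.05 in edgeR, 6 of the 56 were higher and 4 lower in Rpb2, where 566 and 535 of 10206 genes were. Pools lay apart in 20 that were higher and 11 that were lower, against 22.4% and 19.7% of all genes. In H3K27ac 1 of the 62 was higher and 0 lower at that p, where 161 and 937 of 16938 genes were. There pools lay apart in 16 that were higher and 8 that were lower, against 13.4% and 14.2%. The 5 with the lowest p for each mark are named here. *Tnf*, the cytokine that is both inducer and target of NF-kB, had 102 ± 0.608 CPM in WT and 195 ± 27.7 in KO, and the log2 fold change was 0.94 ± 0.23 and an adjusted p of 0.141. *Il1b*, also a cytokine target, was at 2.34 ± 0.75 with 9, 9, 69 and 129 reads, and *Il1a* at 0.48 ± 0.20. *Ikbke*, an IKK-related kinase, had 919 ± 42.8 and 1129 ± 14.1 (0.30 ± 0.10, adjusted p = 0.26). *Bcl2a1d*, an antiapoptotic target with near-identical paralogs whose reads cannot be told apart with certainty, was at 3.32 ± 0.90 in Rpb2 and 0.88 ± 0.41 in H3K27ac. In H3K27ac the others with the lowest p were *Ankrd1*, whose 48 reads all came from the pool labelled WT female, *Bcl10* (0.45 ± 0.23), *Rbck1* (0.65 ± 0.34) and *Rnf11* (-0.87 ± 0.47), with adjusted p values from 0.763 to 0.878.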

How the data were processed

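Microglia sorted from WT and KO animals were assayed by Rpb2 and H3K27ac ChIP-seq, with 4 libraries per mark. The authors mapped single-end reads to mm10 with Bowtie2, called peaks with HOMER, kept peaks reproducible between pools, joined the lists of both genotypes, and deposited whole-number read counts for each joined peak, with a normalization factor of 1 per the file headers. Peaks at 0 outnumber those at 1 read in every library, and whether low counts were set to 0 is not given in the sources used here. The number of unused columns of per-sample values was 0, and the 4 input samples were not used here.

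The test was edgeR's quasi-likelihood test (edgeR 4.0.16, R 4.3.3, TMM factors, genotype alone, Benjamini-Hochberg over all tested peaks or gene sums, threshold 0.05) where the mean reached 4 reads in a genotype. All peaks entered rather than those within 1000 bp of a TSS only, since many member peaks are distal. Fold changes are log2 and SDs are over 2 pools. Single-library ratios used a prior count of 2. With 2 pools against 2 an exact permutation test cannot go below 0.333. Intervals are at 95%.

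Each member is described by its promoter peak, the peak at most 1000 bp from a TSS whose mean count was highest. By rule, further peaks were named for an unadjusted p under 0.05 with pools that did not overlap, or as 1 of the 3 highest per kb or the 3 widest of a mark, and pathway genes for the 5 lowest p per mark. The other peaks named, and the sequences printed, were chosen after their values were seen. The members and lists were chosen with earlier results of these data known. Gene positions came from the GENCODE annotation of mm10 and promoter sequences from RefSeq (GRCm38.p6), and all peaks lay within the chromosomes of the genome used. Alternatives were DESeq2 1.42.0, other scalings and filters, a replicate block and each pool left out; the H3K27ac peak over a gene start was added after seeing the data.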

Additional observations from a re-analysis of the deposited data

Results flagged for a closer look

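For 6 promoter peaks the log2 ratio of KO to WT had opposite signs between the female-labelled and the male pools, with 1 pool of each kind, so the difference between them was not tested. In Rpb2 the female-labelled minus male difference was 0.70 for *Rel* (0.10 and -0.61), -1.56 for *Nfkb1* (-0.90 and 0.66) and -0.26 for *Nfkbiz* (-0.06 and 0.20). These 3 rest on the Rpb2 library labelled WT female, whose Y-linked reads go against its label. In H3K27ac it was 0.44 for *Rela* (0.17 and -0.27), 0.65 for *Relb* (0.61 and -0.04) and -0.55 for *Tnfaip3* (-0.35 and 0.19).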

How the results depend on the processing

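Of 194 values of 16 promoter peaks under the alternatives, 177 kept their sign and side of the threshold, 15 changed sign and 2 passed the threshold, and 8 of the 16 peaks never changed sign. Scaling by total reads moved the median of all peaks from 0.04 to 0.37 in Rpb2 and from -0.21 to 0.53 in H3K27ac. The member medians moved to 0.29 and 0.55, and signs turned for Rpb2 at *Rel* (0.06), *Nfkb1* (0.12) and *Tnfaip3* (0.16) and for H3K27ac at *Rela* (0.54), *Nfkb2* (0.42) and *Tnfaip3* (0.71). The added choice of the H3K27ac peak over the gene start, like the planned choice of the peak nearest the TSS, gave *Nfkbiz* -0.02.

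With DESeq2, 1 member Rpb2 peak passed, the *Nfkb2* peak in *Gbf1*. When single pools were left out, the member calls changed only in fits that left a lone WT pool. Those fits also called more of all peaks, so the member calls in them are not read as results. The H3K27ac median of the member peaks ran from -0.24 to 0.24 with a pool left out. The *Relb* promoter value in Rpb2 was 3.26 without the library labelled WT female and 0.95 without the WT male. Left-out ranges that crossed 0 were, in Rpb2, -0.71 to 0.48 for *Nfkb1*, -0.13 to 0.26 for *Nfkbiz* and -0.36 to 0.02 for *Tnfaip3*, and in H3K27ac -0.26 to 0.10 for *Tnfaip3* and -0.23 to 0.12 for *Rela*. *Rel* H3K27ac was at 0.57 without the WT male. The causes were not tested.

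Sex labels were used as a replicate block as an alternative. In H3K27ac the Y-linked reads followed the labels, with 0 and 281 in the WT female and male pools and 0 and 656 in KO. In Rpb2 the library labelled WT female went against its label. Over all peaks, the female minus male differences of the 2 genotypes correlated at -0.00762 in Rpb2 and -0.000271 in H3K27ac. With the block, 0 member peaks or gene sums passed for either mark, and medians were -0.05 and 0.02.

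Counts of all Rpb2 peaks past the threshold, 2 in the reported fit, were 15 with loess offsets, 1022 with DESeq2, 30 with at least 10 reads in every sample, 4 with the block, 0 within 1000 bp of a TSS and 0 to 2210 with a pool left out. For H3K27ac, 13 became 0 with total reads, 240 with DESeq2, 1 with at least 10 reads, 0 near a TSS and 2 to 8157 with a pool left out. With total reads 3 Rpb2 peaks passed, 1 of them higher in KO, against 0 of 2 in the reported fit. Gene sums past the threshold, 0 for either mark, became 28 for Rpb2 with total reads, 5 with loess, 28 with DESeq2, 6 with at least 10 reads, 43 with the block and up to 264 with a pool left out. For H3K27ac they became 8 with total reads, 120 with loess, 213 with DESeq2, 140 with the block and 88 to 3807 with a pool left out. With 2 pools per genotype and a common dispersion of 0.133 in Rpb2 and 1.28 in H3K27ac, small differences at single peaks were not detectable.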
